A study of Mus musculus with 9 samples.

Results

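The genes described here are 6 that make and export microRNAs in animal cells: Drosha, Dgcr8, Xpo5, Dicer1, Tarbp2 and Prkra. They were taken by name from the annotation of a whole-transcript array that carries 19938 genes named by a single symbol, and all 6 are on it. Of 35557 probe sets, 7 belong to them, 2 of those to Tarbp2. RNA came from mouse embryonic stem (ES) cells labelled Dgcr8 -/-. The cells had been transfected with a let-7c mimic or a miR-294 mimic at 50 nM, or mock transfected, and all were then kept without LIF, the cytokine that sustains self-renewal, until harvest at 12 h. Each of the 3 groups had 3 arrays, labelled as biological replicates. All groups, mock included, share the Dgcr8 deletion, and a control mimic was not among the groups. In a comparison with mock, the effect of adding any small RNA at all therefore cannot be told apart from that of the microRNA. The direct comparison sets the mimics, both at 50 nM, against each other. The labels name neither a strain nor the number of ES cell clones.

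Most microRNAs are cut from their precursors in steps. In the nucleus the Microprocessor, made of the nuclease Drosha and its RNA-binding partner Dgcr8, releases a hairpin from the primary transcript, and exportin-5, the product of Xpo5, carries the hairpin to the cytoplasm together with the GTPase Ran. There Dicer1 cuts off the loop, with Tarbp2 or Prkra bound to it, and the duplex passes to an Argonaute protein that keeps the guide strand. A mimic is a ready-made duplex of this last kind and does not depend on either cut, which is why cells without Dgcr8 are used to show the effect of a single added microRNA. Let-7 microRNAs are abundant in differentiated cells, and the miR-290 family, to which miR-294 belongs, is abundant in ES cells.

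A microRNA pairs with its targets mainly through its seed, bases 2 to 8, so the 2 guide strands are shown with the seed in capitals, as RefSeq (GRCm38.p6) gives the mature forms. The labels do not give the sequences of the mimics themselves.
mmu-let-7c-5p: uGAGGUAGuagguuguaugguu
mmu-miR-294-3p: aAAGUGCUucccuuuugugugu
Let-7c-5p is encoded at 2 loci, chr15:85706616-85706637 and chr16:77599672-77599693, and miR-294-3p at chr7:3220691-3220712, all on the + strand. The let-7c seed is shared by 11 of 1679 mature mouse names in that table, all of them let-7 members or miR-98 except miR-1961. The miR-294 seed is shared by 5 names, among them miR-291a-3p, miR-295-3p and miR-302b-3p.

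The deposited values are log2 intensities of 1 probe set on 1 array, with medians between 7.36 and 7.41 on the 9 arrays, and correlations within groups were 0.995 to 0.997 over the 13182 genes tested. All 10 ES cell markers checked, among them Pou5f1, Sox2 and Nanog, lay above the median probe set. Their mean level was 11.7 on every let-7c array, 12.1 to 12.2 on the miR-294 arrays and 12.0 on every mock array (log2). Against mock 6 of the 10 fell with let-7c (limma, adjusted p under 0.05), by the most Sall4 (-1.44 ± 0.06). With miR-294 5 of the 10 rose, Sall4 again by the most (0.37 ± 0.06). Beside these counts, 14.8% of all genes tested fell with let-7c and 20.7% rose with miR-294. Of 8 feeder fibroblast markers 4 were too dim to be tested (Postn, Pdgfrb, Lum and Dcn), and the mean of the 8 was 6.66 to 6.89 with let-7c, 6.69 to 6.80 with miR-294 and 6.59 to 6.70 with mock. Of the 4 tested, Col3a1 rose with miR-294 (0.16), and the adjusted p of the 4 with let-7c was 0.296 or more. The 3 lists of early differentiation had 4 tested markers each. With let-7c Gata4 of primitive endoderm (0.31), Eomes of trophoblast (0.38) and Nes of neurectoderm (0.76) rose, and Tfap2c (-0.31) and Tubb3 (-0.53) fell; with miR-294 Sox7 (0.36) and Eomes (0.35) rose and Tubb3 (-0.23) fell. Sox17, Pdgfra, Cdx2, Elf5 and Neurog1 were too dim to be tested. The mean of the primitive endoderm list was 7.17 to 7.26 with let-7c, 7.16 to 7.22 with miR-294 and 7.03 to 7.17 with mock, and that of the trophoblast list 7.39 to 7.46 with let-7c, 7.45 to 7.48 with miR-294 and 7.33 to 7.43 with mock. For the neurectoderm list it was 8.38 to 8.41 with let-7c, 8.26 to 8.36 with miR-294 and 8.25 to 8.33 with mock. The part of the marker levels in the differences below was not tested. In bulk RNA, fewer cells of a type and less RNA per cell cannot be told apart.

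All 6 processing genes passed the filter on dim genes on all 9 arrays. Against mock, 4 of the 6 fell with let-7c (Dicer1, Tarbp2, Xpo5 and Drosha), while Dgcr8 and Prkra did not pass the threshold of an adjusted p under 0.05. With miR-294, Tarbp2 and Xpo5 rose, Dicer1 and Prkra fell, and Drosha and Dgcr8 did not pass. Over all genes tested, 28.7% were called with let-7c and 41.9% with miR-294, so a call alone did not set a gene apart. The medians of the 6 differences were -0.25 with let-7c and 0.06 with miR-294, beside medians of 0.02 in both comparisons over all genes tested (log2). Both comparisons use the same mock arrays.

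**Figure D1:**
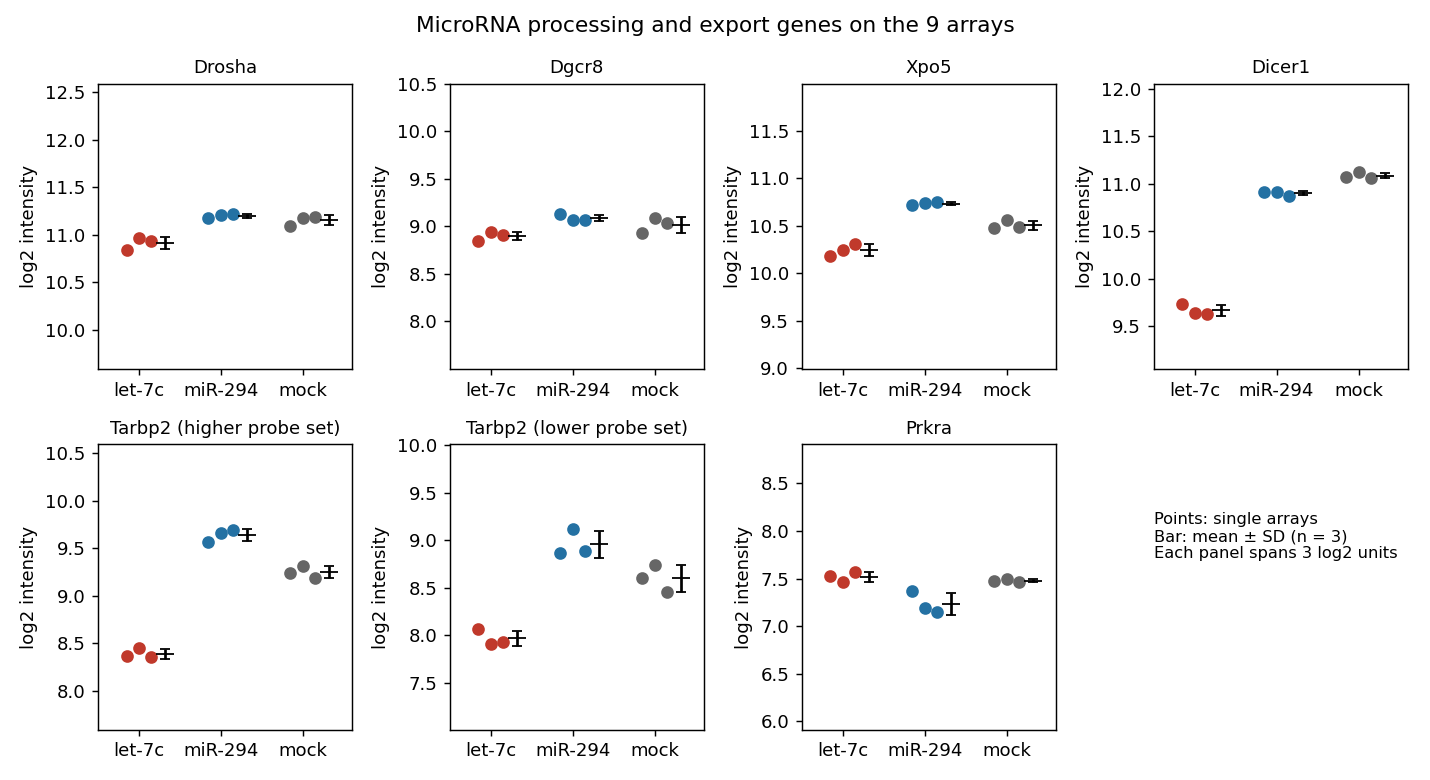
Log2 intensity (vertical axis) of the 7 probe sets on the 9 arrays, by group (let-7c, miR-294, mock); points are single arrays, and the bar beside them is the mean with its SD (n = 3). Dicer1 lies between 9.63 and 9.74 with let-7c and between 10.88 and 11.12 on the other arrays, and both Tarbp2 probe sets are ordered let-7c, mock, miR-294.

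Dgcr8, the gene deleted in these cells, comes first. Its probe set read 8.85, 8.94 and 8.91 with let-7c, 9.13, 9.07 and 9.07 with miR-294, and 8.92, 9.08 and 9.03 with mock (log2). On every array this was above at least 72.2% of all probe sets, so the probe set did not read as absent. Neither the deleted part of the gene nor the position of the probes is stated in the labels, and the reading is therefore no check of the genotype. The let-7c arrays overlapped the mock arrays (-0.11 ± 0.05 (SE), 95% interval -0.23 to -0.0014, adjusted p = 0.12). Within same-numbered pairs of arrays Dgcr8 was lower with let-7c in 3 of 3 (-0.07, -0.15 and -0.12), and with the replicate number as a block it did not pass either (adjusted p = 0.101). The miR-294 arrays also overlapped mock (0.08 ± 0.05, interval -0.04 to 0.19, adjusted p = 0.26). Set directly against each other, Dgcr8 was lower with let-7c than with miR-294 by 0.19 on the log2 scale (SE 0.05, adjusted p = 0.009), and these arrays did not overlap.

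Drosha encodes the nuclease of the Microprocessor and, in normal cells, its protein is stabilised by Dgcr8. It read 10.84, 10.96 and 10.93 with let-7c, 11.18, 11.21 and 11.22 with miR-294, and 11.09, 11.18 and 11.19 with mock. All let-7c arrays lay below all mock arrays, a fall to 84.7% of the mock level (-0.24 ± 0.05, adjusted p = 0.0038). Groups that do not overlap were found for 43.9% of all genes tested in this comparison, and for 4 of the 6 processing genes; with miR-294 against mock the share was 53.8%, and again 4 of the 6. With miR-294 Drosha overlapped mock (0.05 ± 0.05, interval -0.06 to 0.16, adjusted p = 0.43), and within same-numbered pairs it was higher in 3 of 3, by 0.03 to 0.09; with the block it did not pass (adjusted p = 0.333). Between the mimics it was lower with let-7c (-0.29 ± 0.05, adjusted p = 4.0e-04).

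Xpo5, the exporter of hairpin precursors, read 10.18, 10.24 and 10.31 with let-7c, 10.71, 10.74 and 10.75 with miR-294, and 10.47, 10.56 and 10.49 with mock. The 3 groups were fully separated, with mock in the middle. Xpo5 fell to 83.4% of mock with let-7c (-0.26 ± 0.05, adjusted p = 0.0022) and rose to 117% of mock with miR-294 (0.23 ± 0.05, adjusted p = 0.0031). The direct difference was -0.49 ± 0.05 for let-7c minus miR-294 (adjusted p = 7.6e-06).

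Dicer1, which makes the cytoplasmic cut and has been described as a let-7 target, changed the most of the 6 with let-7c against mock. It read 9.74, 9.64 and 9.63 with let-7c, 10.91, 10.92 and 10.88 with miR-294, and 11.07, 11.12 and 11.06 with mock. The let-7c mean of 9.67 ± 0.06 was 37.5% of the mock level of 11.09 ± 0.03 once both are taken off the log scale (SD, n = 3). Among the 13182 genes this fall of 1.42 ± 0.05 ranked number 4 (adjusted p = 4.7e-08); 19 called genes fell by at least 1 log2 unit in this comparison. With miR-294 Dicer1 was also lower than mock, to 88.1% of its level (-0.18 ± 0.05, adjusted p = 0.0075), and the arrays did not overlap. The fall with let-7c exceeded that with miR-294 by 1.23 ± 0.05 (adjusted p = 1.0e-08, let-7c against miR-294 directly).

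Tarbp2 and Prkra encode related double-stranded RNA-binding partners of Dicer1, and they also act on the kinase PKR, which Tarbp2 restrains and Prkra activates. The brighter Tarbp2 probe set read 8.37, 8.45 and 8.36 with let-7c, 9.57, 9.66 and 9.69 with miR-294, and 9.24, 9.32 and 9.19 with mock. As for Xpo5, no groups overlapped and mock lay in the middle, with a wider spacing. Tarbp2 fell to 55.1% of mock with let-7c (-0.86 ± 0.05, adjusted p = 2.3e-06), number 41 among all falls, and rose to 131% of mock with miR-294 (0.39 ± 0.05, adjusted p = 1.4e-04). Of all genes tested, 14.8% fell with let-7c and 20.7% rose with miR-294. Let-7c minus miR-294 gave -1.25 ± 0.05 (adjusted p = 2.0e-08), number 14 among the genes lower with let-7c, while Dicer1 was number 17.

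The other probe set annotated to Tarbp2 was dimmer, at 8.06, 7.91 and 7.93 with let-7c, 8.87, 9.12 and 8.88 with miR-294, and 8.60, 8.74 and 8.45 with mock. Its groups stood in the same order and did not overlap. Its differences were -0.63 ± 0.08 with let-7c (adjusted p = 3.3e-04) and 0.36 ± 0.08 with miR-294 (adjusted p = 0.006), each from a fit in which it took the place of the brighter one. The 95% interval with let-7c, -0.82 to -0.45, overlapped that of the brighter probe set, -0.97 to -0.74. Where on the transcript either probe set lies is not stated in the annotation. The genomic position of the dimmer one was not checked, and whether it reads Tarbp2 alone was not tested.

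Prkra read 7.53, 7.47 and 7.57 with let-7c, 7.37, 7.19 and 7.15 with miR-294, and 7.48, 7.50 and 7.46 with mock. This was the dimmest of the 7 probe sets, above 45 to 53.4% of all probe sets on its array. The let-7c arrays overlapped mock (0.04 ± 0.06, interval -0.09 to 0.17, adjusted p = 0.63), and that interval does not reach the fall of Tarbp2. How large a fall a probe set this dim can show was not tested. With miR-294 all 3 arrays lay below mock (-0.25 ± 0.06, 84.4% of mock, adjusted p = 0.0063), a change opposite in sign to that of Tarbp2 in the same arrays. Between the mimics Prkra alone of the 6 was higher with let-7c (0.29 ± 0.06, adjusted p = 0.0016), as were 26.2% of all genes tested; the other 5 were lower, as were 24.5%. All 6 passed the threshold in that direct comparison, in which 50.8% of all genes tested were called, and for all 6 the let-7c and miR-294 arrays did not overlap, as for 57% of all genes tested.

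**Figure D2:**
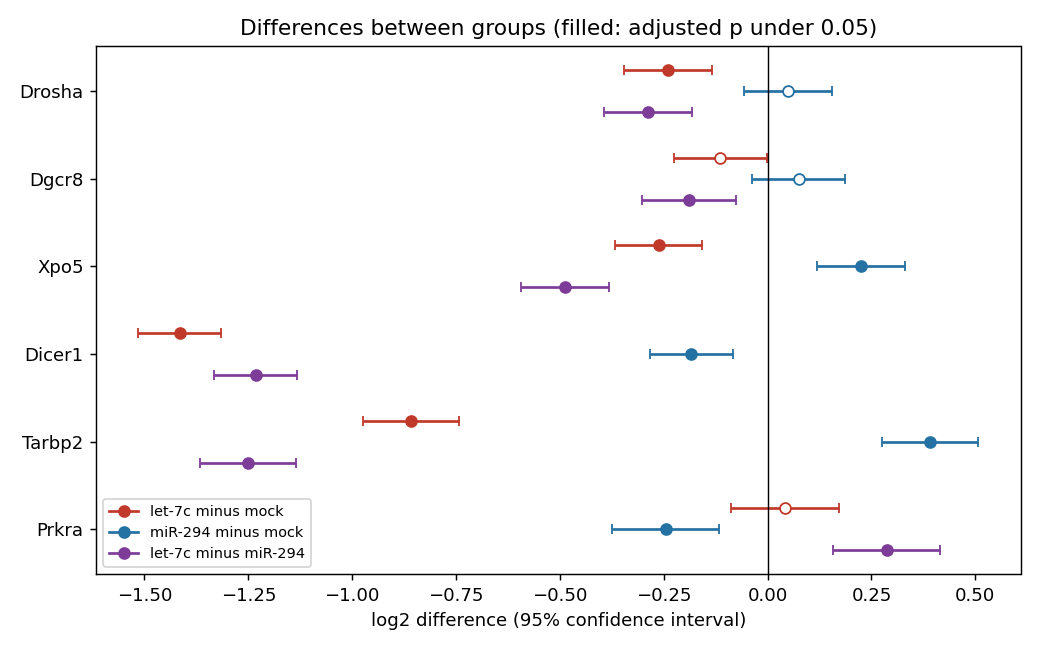
Log2 difference between groups (horizontal axis) for each of the 6 genes, with 95% confidence intervals from the limma fit; filled points had an adjusted p under 0.05. Dicer1 and Tarbp2 stand apart to the left with let-7c, and with miR-294 Tarbp2 and Xpo5 lie to the right of 0 while Dicer1 and Prkra lie to the left.

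Placed in order, Tarbp2 and Xpo5 ran let-7c, mock, miR-294 from low to high with each step past the threshold. Dicer1 ran let-7c, miR-294, mock, again with each step past it. For Drosha the let-7c level was below the others, and miR-294 and mock did not differ beyond their spread. For Prkra the miR-294 level was below the others, and let-7c and mock did not differ beyond theirs. For Dgcr8 neither step beside mock passed, and the difference between the outer groups, let-7c and miR-294, did.

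The start-site regions of Dicer1 and Tarbp2, the pair with the largest falls with let-7c, are printed. They run from 250 bases before to 50 after a RefSeq start site in GRCm38.p6, read along the gene. Capitals mark the letters CCAAT or, on the other strand, ATTGG, the core of the promoter element called the CCAAT box. Dicer1 is at chr12:104751903-104752202 on the - strand and Tarbp2 at chr15:102517942-102518241 on the + strand. The whole Tarbp2 window lies inside the annotated span of the gene, chr15:102516077-102523676, so its start site is an internal one.
Dicer1: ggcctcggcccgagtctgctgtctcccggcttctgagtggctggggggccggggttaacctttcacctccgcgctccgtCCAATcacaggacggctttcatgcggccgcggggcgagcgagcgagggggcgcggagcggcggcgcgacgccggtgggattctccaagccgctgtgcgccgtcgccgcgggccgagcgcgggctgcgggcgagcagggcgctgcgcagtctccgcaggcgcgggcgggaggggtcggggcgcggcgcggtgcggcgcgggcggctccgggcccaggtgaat
Tarbp2: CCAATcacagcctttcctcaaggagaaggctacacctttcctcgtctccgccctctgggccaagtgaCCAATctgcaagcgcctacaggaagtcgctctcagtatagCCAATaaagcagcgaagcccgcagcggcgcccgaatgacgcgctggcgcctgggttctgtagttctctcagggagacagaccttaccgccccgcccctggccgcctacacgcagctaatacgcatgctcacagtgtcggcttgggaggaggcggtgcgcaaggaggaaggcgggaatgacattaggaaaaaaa
These letters occurred 1 time in the Dicer1 window and 3 times in the Tarbp2 window. They were in 4 of the 6 windows (also Drosha and Dgcr8), against 37.4% of 32851 start-site windows of the same length. Dgcr8, which did not pass against mock, had them 4 times, and Xpo5, which fell with let-7c, 0 times. GGGCGG or CCGCCC, the GC box, was in 5 of the 6 against 35.7%, and CACGTG, the E-box that Myc proteins bind, was in 0 of the 6 against 7.15%. Both strands were read, and 0 matches in the 6 windows overlapped a match to another of the motifs. The 6 windows were 59 to 77.3% G and C, beside a median of 52.7% over all windows, and letters in a window do not show that a factor binds there. A part of these letters in the differences from mock was not tested.

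Genes that share a profile with a processing gene were found by the root mean square (RMS) distance over the 9 arrays between profiles centred on their own means. Closest to Dicer1, whose own profile had an RMS of 0.63, were Arid3b at a distance of 0.07, Trim6 at 0.10 and Igf2bp1 at 0.12 (log2). Arid3b, a DNA-binding protein gene, differed from mock by -1.33 with let-7c and -0.11 with miR-294, and Igf2bp1, for an oncofetal RNA-binding protein, by -1.30 and 0.04. Closest to Tarbp2, with an RMS of 0.52, were the DNA methyltransferase gene Dnmt3b at 0.06, the Rab regulator gene Tbc1d13 at 0.07 and Cecr2 at 0.07. Dnmt3b differed from mock by -0.79 with let-7c and 0.39 with miR-294. Closest to Xpo5 were the casein kinase gene Csnk1d, Jpt2 and the ribosome biogenesis gene Wdr75, each at 0.03. The profiles of Drosha (RMS 0.13) and Prkra (0.14) were small, and their nearest genes were Zfp207, Polr2b and Srpk1 for Drosha and Grid1, Gfpt1 and Abr for Prkra, all within 0.03.

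**Figure D3:**
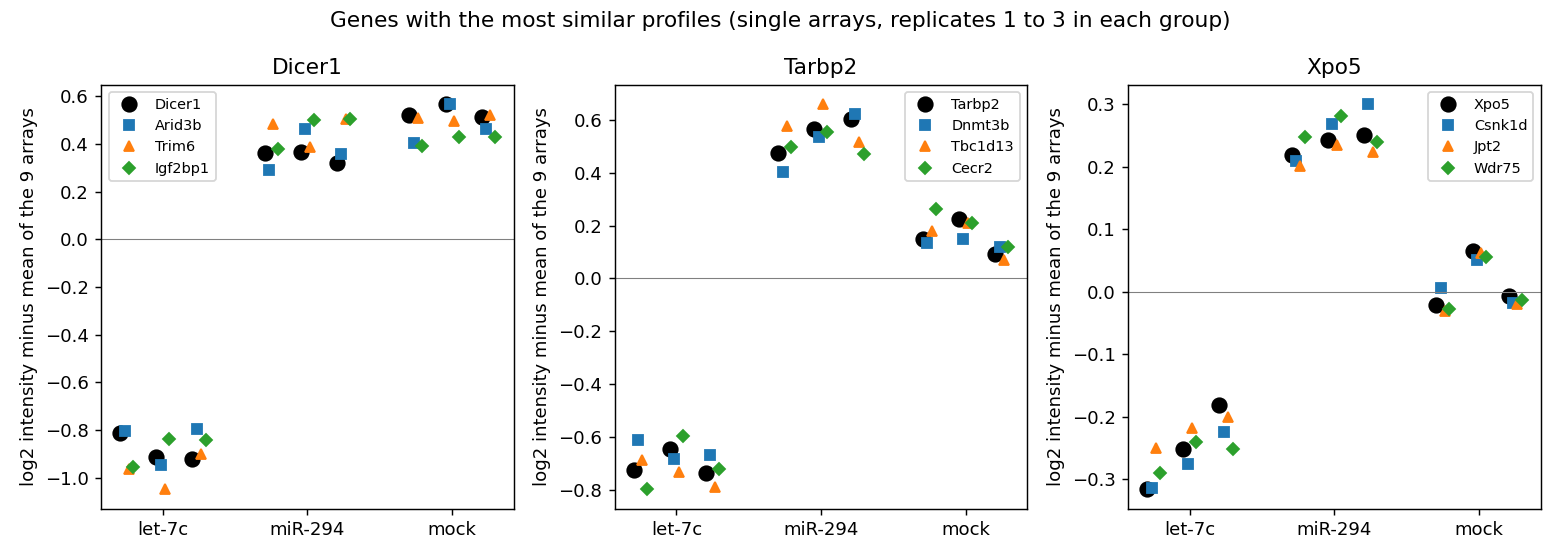
Log2 intensity minus the mean of the 9 arrays (vertical axis) for Dicer1, Tarbp2 and Xpo5 (black circles) and the 3 genes with the nearest profile to each; every point is an array. For Dicer1 and its nearest genes the let-7c arrays lie far below all others, and for Dicer1 itself the miR-294 arrays lie a smaller step below mock; for Tarbp2 and Xpo5 mock lies between let-7c and miR-294.

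The other genes of the pathway were read from lists by role. Proteins that assist the Microprocessor had 13 of 16 entries with a probe set of a single symbol, all of them tested. With let-7c 3 of the 13 fell, 23.1% against 14.8% of all genes tested, and the median was -0.12. The count was 5 with the replicate number as a block, 5 with the stricter filter on dim genes and 7 with an intensity trend and robust prior. The 3 in the first count were Khsrp (-0.30 ± 0.05, adjusted p = 0.0011), Ilf2 (-0.20 ± 0.04) and Mettl3 (-0.15 ± 0.05). The Khsrp protein binds the loop of let-7 precursors, and Mettl3 encodes an RNA methyltransferase. The call of Mettl3 held in 9 of 18 alternatives (adjusted p 0.0159 to 0.12) and ended without let-7c replicate 1 or 2, miR-294 replicate 2 or mock replicate 2 or 3. It also ended with no filter on dim genes, under quantile normalization, with every probe set tested and with only the 2 compared groups fitted. With miR-294 Safb2 (0.21), Srrt (0.18) and Erh (0.15) rose, Mettl3 fell (-0.15), and 9 did not pass, beside 20.7% of all genes that rose and 21.1% that fell; the median was 0.06. Without miR-294 replicate 1 or without mock replicate 3 the count was 2 in place of 4. Erh also ended without miR-294 replicate 1 or 2 or mock replicate 1 or 3 (adjusted p 0.0024 to 0.0758 over the alternatives), and Mettl3 without miR-294 replicate 1 or 2 or mock replicate 2 or 3 (0.009 to 0.0805). The Mettl3 call with miR-294 ended with no filter on dim genes as well (adjusted p = 0.051). Directly, 9 of 13 were lower with let-7c than with miR-294, against 24.5% of all genes tested, the median being -0.19.

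The Ran cycle supplies the RanGTP that exportin-5 needs, and all 5 of its listed genes were tested. With miR-294 4 of the 5 rose, 80% against 20.7% of all genes tested. These were the exchange factor gene Rcc1 (0.42 ± 0.05, adjusted p = 9.7e-05), Rangap1 (0.25), Ranbp1 (0.24) and Ran itself (0.23). Rcc1 read 10.15, 10.23 and 10.26 with miR-294, all above the mock values of 9.77, 9.83 and 9.78. With let-7c, at 9.59, 9.47 and 9.64, it fell (-0.23 ± 0.05, adjusted p = 0.0083), as did the nuclear pore gene Ranbp2 (-0.27 ± 0.04); these were 2 of the 5, against 14.8% of all genes tested. All 5 were lower with let-7c than with miR-294, as were Xpo5 and 24.5% of all genes tested; for Rangap1 that call ended under quantile normalization (adjusted p = 0.15; lowest over the alternatives 0.0023).

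Of 17 genes that tail, edit or degrade microRNA precursors and microRNAs, 7 fell and 1, Zswim8 (0.23), rose with let-7c (median -0.09), beside 14.8% of all genes tested that fell and 13.9% that rose. Those that fell the most were Lin28b and Lin28a, whose proteins hold back let-7 maturation, Tent2 (-0.40 ± 0.06), for a poly(A) polymerase, and Tut4 (-0.33 ± 0.06), for an enzyme that adds uridines. Lin28b read 8.38, 8.37 and 8.39 with let-7c, 8.88, 8.93 and 8.83 with miR-294, and 9.04, 9.04 and 9.11 with mock. Lin28a read 7.71, 8.09 and 8.14 with let-7c, 9.39, 10.06 and 9.85 with miR-294, and 8.57, 8.62 and 8.50 with mock. For both genes the groups did not overlap. With miR-294 Lin28a rose (1.20 ± 0.15, adjusted p = 9.1e-05) and Lin28b fell (-0.18 ± 0.04, adjusted p = 0.0066). The fall of Lin28a with let-7c (-0.59 ± 0.15, adjusted p = 0.0138) ended without let-7c replicate 1 (0.0543; lowest over the alternatives 0.0024). With miR-294 7 of the 17 fell and 3 rose (median -0.08), beside 21.1% and 20.7% of all genes tested. Among them were Tent2 (-0.38 ± 0.06), Tsn (-0.29 ± 0.06), a subunit of a small RNA nuclease, and the precursor-cutting nuclease gene Zc3h12a (0.44 ± 0.06).

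**Figure D4:**
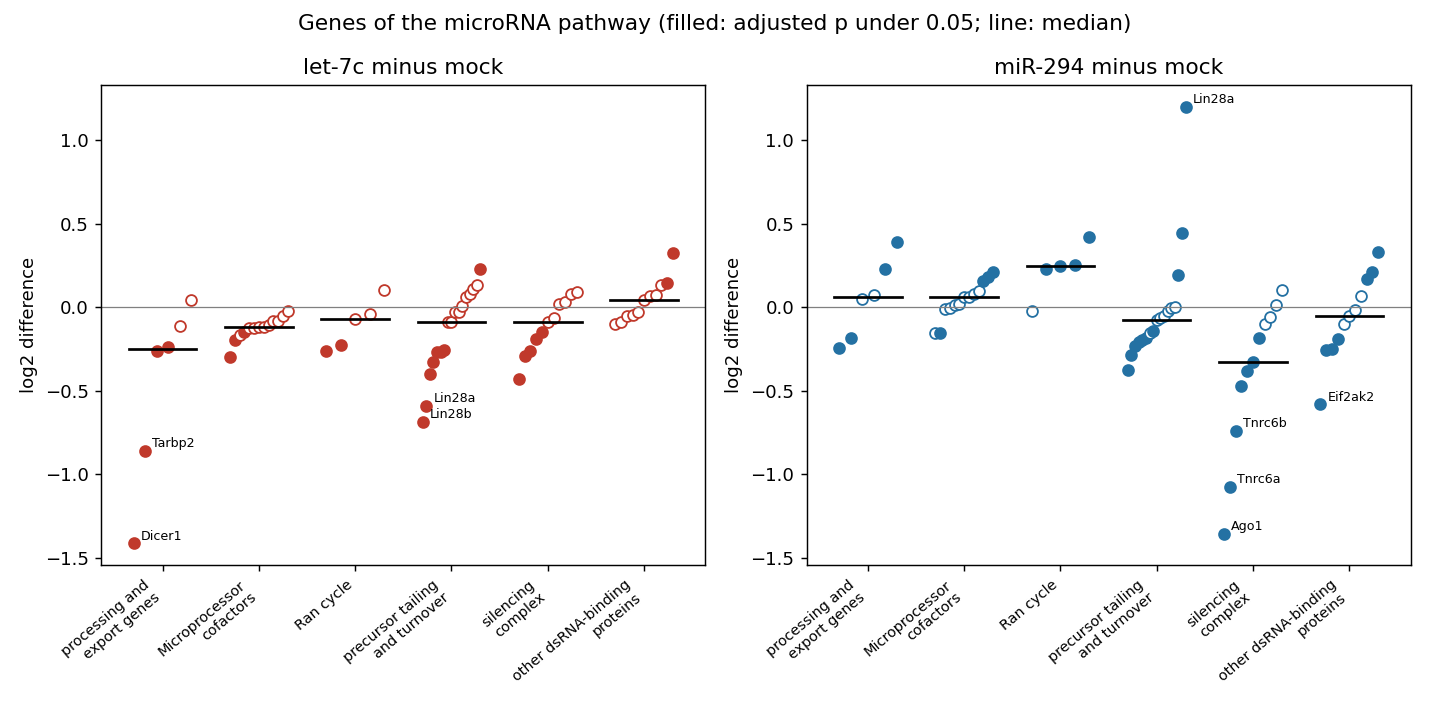
Log2 difference from mock (vertical axis) of each tested gene of the microRNA pathway, by list, with let-7c on the left and miR-294 on the right; filled points had an adjusted p under 0.05 and the line is the list median. With let-7c the lowest points are Dicer1 and Tarbp2, and with miR-294 they are Ago1 and Tnrc6a of the silencing complex.

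The silencing complex, into which the product of Dicer1 is loaded, had 11 tested genes of 13 entries; Ago4 was too dim and Hsp90ab1 had no probe set of its own symbol. With miR-294 7 of the 11 fell (median -0.33), 63.6% against 21.1% of all genes tested. Ago1, for an Argonaute protein, read 9.49, 9.44 and 9.44 with miR-294 against 10.79, 10.84 and 10.82 with mock (-1.36 ± 0.04, adjusted p = 5.5e-09), and Tnrc6a (-1.08 ± 0.04), Tnrc6b (-0.74 ± 0.05) and Tnrc6c (-0.47 ± 0.05), which encode scaffold partners of Argonaute, fell as well. With let-7c 5 of the 11 fell (median -0.09), against 14.8% of all genes tested, among them Ago2 (-0.43 ± 0.07, adjusted p = 9.1e-04), the co-chaperone gene Fkbp4 (-0.30 ± 0.04), Ago1 (-0.26 ± 0.04) and the helicase gene Mov10 (-0.19 ± 0.06). The count was 3 without let-7c replicate 2 or 3 or mock replicate 1 or 2, each of which also ended the call of Mov10 (adjusted p 0.0030 to 0.083 over the alternatives). That call ended with no filter on dim genes and under quantile normalization as well, and held in 12 of 18 alternatives. Tnrc6c (-0.15 ± 0.05), the remaining gene called with let-7c, held in 7 of 18 (adjusted p 0.0279 to 0.139). Between the mimics Ago1 was higher with let-7c, by 1.10 ± 0.04, and Dicer1 was lower with it, by the 1.23 ± 0.05 given above.

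Other double-stranded RNA-binding proteins, listed beside Tarbp2 and Prkra, had 11 tested genes of 12. With let-7c Stau2 (0.32 ± 0.05) and Zfr2 (0.14 ± 0.05) rose and 9 did not pass (median 0.04); of all genes tested 13.9% rose. The call of Zfr2 held in 6 of 17 alternatives and ended on leaving out any let-7c array, any mock array or miR-294 replicate 2 (adjusted p 0.0236 to 0.13). It also ended with no filter on dim genes, under quantile normalization, with the trend and robust prior and with every probe set tested. This leaves 1 gene called, except without let-7c replicate 1, where Eif2ak2 passed (0.0169). With miR-294 4 of the 11 fell and 3 rose (median -0.05), beside 21.1% and 20.7% of all genes tested. Eif2ak2, which encodes PKR, the kinase that Tarbp2 and Prkra act on, read 8.31, 8.27 and 8.20 with miR-294 against 8.83, 8.84 and 8.86 with mock (-0.58 ± 0.07, adjusted p = 6.4e-05). With let-7c it read 8.80, 9.12 and 9.00, overlapping mock (0.13 ± 0.07, adjusted p = 0.19). Among the others called with miR-294 were Dus2 (0.33), for a tRNA-modifying enzyme, Cdkn2aip (-0.26) and Stau2 (-0.25).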

How the data were processed

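RNA of 9 samples was measured on 1-colour arrays. The authors deposited 1 value per probe set and array, taken here as a log2 intensity from its range, since no header states the scale. The submitters' processing notes name GCRMA, with no version. Genes were named from GEO's platform annotation, updated through gene IDs to RefSeq symbols. For genes with several probe sets the one with the highest mean was used, and genes entered the test when 3 or more arrays exceeded the 40th percentile of all probe sets on that array. Differences came from 1 limma 3.58.1 fit in R 4.3.3 (lmFit, eBayes, 3 group means, 6 residual degrees of freedom, two-sided), adjusted by Benjamini-Hochberg over 13182 genes and called at an adjusted p under 0.05. Differences are given ± their standard errors. The number of arrays limits the precision.

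The 6 genes and the lists were chosen with earlier results of these data known. Genes named from a list are the called ones that changed most against mock, at most 4 in a comparison, plus Lin28a and Lin28b. A few values are added beside these (Eif2ak2 and Tnrc6c with let-7c, Zswim8). Replicate numbers are shared between groups, but the main fit left them out, so its standard errors and adjusted p are unpaired. Differences within same-numbered pairs and fits with the number as a block are given beside it. Same-numbered arrays deviated together from their group means with correlations of 0.133 to 0.418 against mock in both comparisons. Between the mimics these were 0.0285 to 0.248. Let-7c replicate 3 correlated more with mock replicate 2 (0.149) than with mock replicate 3 (0.133). The fit was also run on simulated data with independent errors between arrays, which does not test it under correlations such as these. Alternatives changed the filter, scaling, probe set rule, variance model, groups fitted, block and replicates.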

Additional observations from a re-analysis of the deposited data

How the results depend on the processing

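Over 18 other settings (17 for Prkra, which failed the filter at the 60th percentile), each of the 6 processing genes kept its direction and its side of the threshold in all 3 comparisons. Dicer1 with let-7c ranged from -1.45 to -1.40 and Tarbp2 from -0.89 to -0.75. The nearest to a change was Dgcr8 with let-7c, whose adjusted p ranged from 0.0529 to 0.355. The numbers of genes called stayed within 1.5 times. With the replicate number as a block they were 4557 with let-7c, 6185 with miR-294 and 7231 between the mimics. Without it, in the main fit, they were 3783, 5521 and 6694. With the block, apart from the Microprocessor assistants with let-7c (5 in place of 3), no list count moved by over 1.5 times. That count was also 5 with the stricter filter and 7 with an intensity trend and robust prior. Other double-stranded RNA-binding proteins called with let-7c numbered 1 in place of 2 with no filter, with the stricter filter, under quantile normalization, with the trend and robust prior and with every probe set tested. Leaving out 1 array gave 1 to 2 for these, 3 to 5 for the silencing complex with let-7c and 2 to 5 for the Microprocessor assistants with miR-294. Over these settings, calls of genes named from the lists were kept 1097 times and lost 53 times. The cause was not tested. The other Tarbp2 probe set, an alternative chosen after seeing the data, kept all 3 calls.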
